A study of Mus musculus with 2 samples.

Results

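Grb10 and Ddc are neighbouring genes on mouse chromosome 11, and they are 2 of the 128 entries in the authors' catalog of known imprinted genes. Both were chosen by name and position, and no measured value entered the choice, although earlier results of these data were known. They were followed through 2 RNA-Seq libraries of whole brain at E17.5 (embryonic day). The BxC library came from an F1 embryo with a C57BL/6J mother and a CastEi/J father (the CAST/EiJ strain), and the CxB library from an F1 embryo of the reciprocal cross. Each library was made from the polyA+ RNA of 1 unpooled brain, and 1 library per cross leaves no replicate error. No test between the crosses was therefore possible, and each value below describes these 2 libraries. The study's methods name its CxB brain as male and list BxC brains of both sexes without saying which one gave the library used here. Chromosome Y had 1852 reads on 277 distinct positions in BxC and 18212 on 7192 in CxB, as in a female and a male brain, so cross and sex cannot be told apart. The alignments hold no bases, and no allele could be counted.

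Genomic imprinting is the expression of a gene mainly or only from the copy inherited from 1 parent. Grb10 encodes an adaptor protein that binds the insulin and IGF receptors and restrains growth signalling. In most mouse tissues it is read from the maternal copy, starting at a major promoter in a CpG island. In neurons it is known to be read from the paternal copy, starting at promoters further downstream, in a second CpG island that is methylated on the maternal copy. Ddc encodes DOPA decarboxylase, also called aromatic L-amino acid decarboxylase, the enzyme that makes dopamine and serotonin from their amino acid precursors. In the brain it is a gene of monoamine neurons. Its imprinting has been described in the heart among other places, where a transcript from another first exon is paternally expressed. Exon by exon counts can show which first exons were in use, but not from which parent.

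The catalog places Grb10 at chr11:11830511-11937358 (mm9) on the minus strand, with 17 exons and the maternal allele as the expressed one. It places Ddc at chr11:11714106-11790404 on the plus strand, as 1 block without exons and without an expressed allele. GENCODE vM1 gene models, also in mm9, put both genes on the minus strand, Grb10 at 11830511 to 11938686 with 12 transcripts and Ddc at 11714104 to 11798047 with 9 transcripts. The catalog's Ddc span is that of the annotated transcript Ddc-201. The genes are 32.5 kb apart, and Grb10 reads toward Ddc.

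Grb10 has 5 annotated first exons that join the same second exon. The first exon of Grb10-005, at chr11:11937195-11937404, is the major one and is also exon 1 of the catalog entry. The other 3 within the gene start 9.43 kb (Grb10-009), 10.7 kb (Grb10-002) and 11.1 kb (Grb10-001) further downstream inside intron 1, where the neuron-type start sites are known to lie. These 3 are called neuron-type first exons below because of their position only. The first exon of Grb10-003 lies upstream of all others. The first exon of Grb10-005 is noncoding, and the coding sequence of that transcript begins in exon 3. Whether the other first exons hold coding bases was not looked up.

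The 150 bases before the annotated starts are shown for the 3 Grb10 first exons with most reads and for the used first exon of Ddc, because they show how the promoters differ. They are read 5′ to 3′ from the mm9 genome on the minus strand, with every CG dinucleotide in capitals.
Grb10-005, chr11:11937405-11937554: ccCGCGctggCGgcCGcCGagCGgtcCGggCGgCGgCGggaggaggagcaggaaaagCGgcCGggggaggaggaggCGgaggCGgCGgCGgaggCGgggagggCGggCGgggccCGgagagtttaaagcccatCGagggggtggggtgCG
Grb10-002, chr11:11926736-11926885: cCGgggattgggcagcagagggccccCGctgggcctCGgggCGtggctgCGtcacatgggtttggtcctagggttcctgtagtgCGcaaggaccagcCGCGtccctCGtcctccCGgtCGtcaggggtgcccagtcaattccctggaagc
Grb10-001, chr11:11926328-11926477: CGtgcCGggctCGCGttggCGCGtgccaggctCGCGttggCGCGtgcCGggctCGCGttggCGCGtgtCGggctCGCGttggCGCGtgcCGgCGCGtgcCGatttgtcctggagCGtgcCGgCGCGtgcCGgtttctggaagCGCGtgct
Ddc-201, chr11:11790405-11790554: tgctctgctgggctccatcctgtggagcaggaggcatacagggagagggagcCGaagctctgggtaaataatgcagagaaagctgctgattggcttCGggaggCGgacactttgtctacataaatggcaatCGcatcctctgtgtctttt

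In the 300 bases from 250 before to 50 after the start, Grb10-005 held 44 CG dinucleotides and Grb10-001 held 54. Of 69969 annotated starts, 2.67% had at least as many as Grb10-005 and 0.417% at least as many as Grb10-001, and the median was 10. The window of Grb10-002 held 14, that of Grb10-009 held 9 and that of Grb10-003 held 7. Both Ddc starts, Ddc-201 and the upstream Ddc-001, held 5. Only the windows of Grb10-005 and Grb10-001 were thus dense in CG among the 7 starts, one at the major and one at a neuron-type first exon.

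Over its merged exons, Grb10 had 16165 reads in BxC and 13002 in CxB. As RPKM (reads per kilobase of exon and per 1000000 reads of the library), its level in BxC was 13.7, with an exact 95% Poisson interval of 13.5 to 13.9. In CxB it stood at 12.9 RPKM (12.7 to 13.2). Ddc had 1129 and 923 reads, at a level of 2.01 RPKM in BxC (1.90 to 2.13) and 1.93 in CxB (1.81 to 2.06). Grb10 was thus well expressed, with 13.5% and 14.6% of genes with a read at least as high. Ddc by this measure lay near the middle of all genes, with 44.7% and 46.2% at least as high. Its 4354 merged bases include last exons of early-ending transcripts that held few reads, which lowers the level. Grb10 has 9164 merged bases. The exons of Grb10-005 held most of its reads, on 663 (exons 1 to 4), 1296 (5 to 16) and 3102 bases (17). The level of Grb10 is lowered in the same way, here and in the comparisons below. Exons 1 to 5 of Ddc-201 (642 bases) stood at 11.2 RPKM in BxC and 10.3 in CxB, and exons 6 to 15 (1305 bases) at 1.20 and 1.36. In whole brain, fewer cells that use a gene and less RNA in each of them cannot be told apart. All intervals cover counting error only, and copies of a read made by PCR are not independent, so the true error is larger.

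The log2 ratio of CxB over BxC was -0.08 for Grb10, with a counting interval of -0.11 to -0.05, and -0.06 for Ddc (-0.18 to 0.07). Neither gene was past a fold of 1.5 (0 of 2), and 1.1% of the 15427 genes with at least 100 reads in each library were, 0.473% higher in CxB and 0.622% higher in BxC. Of those genes, 56.0% lay at least as far from 0 as Grb10 and 67.1% as far as Ddc. When each distinct position was counted once, the Grb10 ratio was 0.0037 (-0.07 to 0.08). The ratio of both genes was therefore close to that of most genes in these libraries.

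The major first exon of Grb10 held most of the first-exon reads. It had 3608 reads in BxC and 2349 in CxB, at 133.2 and 101.9 RPKM. The first exon of Grb10-002 had 92 and 107 reads (10.05 and 13.7 RPKM), that of Grb10-001 had 39 and 58 (0.621 and 1.09 RPKM), and that of Grb10-009 had 5 and 1. The upstream first exon of Grb10-003 had 0 reads in both libraries, which allows up to 0.163 RPKM in BxC and 0.191 in CxB. In BxC, 96.4% of the 3744 first-exon reads lay in the major exon (95.7% to 96.9%, exact Clopper-Pearson), and in CxB 93.4% of 2515 (92.4% to 94.3%).

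The neuron-type first exons therefore had reads in both libraries, but few. Grb10-002 was the densest of the 3. The major exon was 13.3-fold denser than it in BxC (10.8 to 16.5) and 7.42-fold in CxB (6.11 to 9.10). The fold depended on the count: by distinct positions it was 2.61 and 1.90, and by reads that start inside the exon 26.01 and 14.2. Per kilobase, the density of Grb10-002 was 0.694 times that of the shared exon 5 in BxC and 0.765 times in CxB, or 0.476 and 0.729 times by positions and 0.266 and 0.336 times by reads that start inside. The 3 exons together had 136 reads in BxC and 166 in CxB, a log2 ratio of CxB over BxC of 0.52 (0.18 to 0.86). Counted by distinct positions they had 53 and 73, a log2 ratio of 0.68 (0.15 to 1.22). The major first exon went the other way by reads, with a log2 ratio of -0.39 (-0.46 to -0.31), but not by positions, where it was 0.12 (-0.18 to 0.42). With 1 library per cross, none of these differences can be set against the spread between brains.

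**Figure D1:**
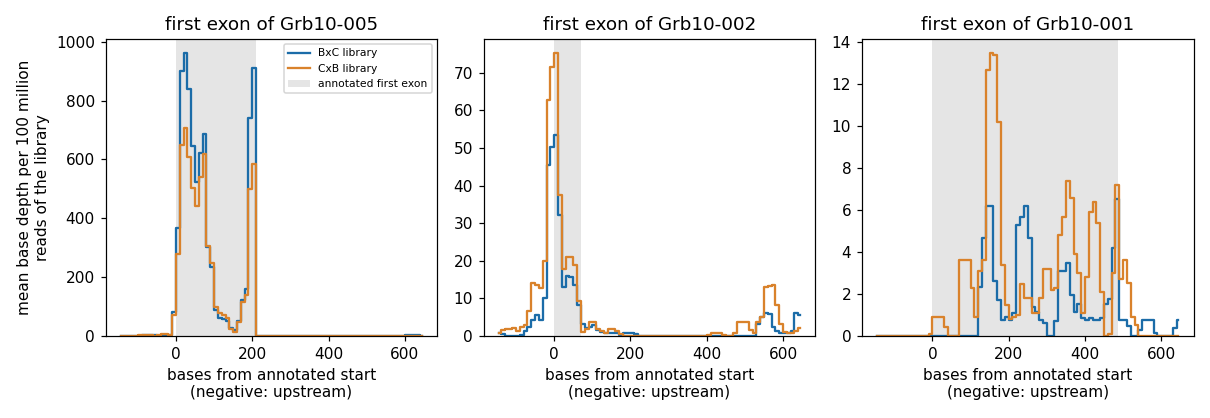
Mean base depth per 100000000 reads of the library (y axis, a separate linear scale in each panel) in steps of 10 bases around 3 annotated first exons of Grb10, by distance from the annotated start (x axis) for the BxC and CxB libraries, with the exon shaded. Depth reached 961.3 in BxC and 705.2 in CxB at the exon of Grb10-005, 53.5 and 75.3 at Grb10-002 and 6.51 and 13.5 at Grb10-001; depth past 400 bases in the middle panel belongs to the start of Grb10-001.

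The reads of Grb10-002 were centred on its annotated start, not inside the exon. Depth was highest over the first 10 bases in both libraries, at 53.5 per 100000000 reads in BxC and 75.3 in CxB. At least 2 distinct positions covered each base for 77 bases upstream of the start in BxC and for 95 in CxB, so reads ran well into the upstream sequence shown above. The exon of Grb10-005 was covered in the same way for 48 and 11 bases upstream, and those of Grb10-001, Grb10-009 and Ddc-201 for 0. In Grb10-001 the reads were spread over the exon of 487 bases, with several rises, 150 bases from the start and near the 3′ end among them in both libraries. Depth was highest near the 3′ end in BxC and 150 bases from the start in CxB. All 452 windows of 36 bases in that exon, all 36 in Grb10-002 and all 175 in the major exon occur only once in the mm9 genome. Windows that cross or lie upstream of the annotated starts, where many of the Grb10-002 reads lay, were not checked.

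Reads that span a splice junction name the first exon directly. Into exon 2, 1124 reads came from the major first exon in BxC and 596 in CxB. From Grb10-001 there were 10 and 7, from Grb10-009 4 and 1, and from Grb10-002 and Grb10-003 0 in both. The major exon thus gave 98.8% of 1138 such reads in BxC (97.9% to 99.3%) and 98.7% of 604 in CxB (97.4% to 99.4%). The share did not differ between the libraries beyond these intervals. Few of the junction reads of the major exon lay on the annotated strand, 87 in BxC and 54 in CxB. With sense reads only, the major exon gave 87 of 96 and 54 of 56, and the neuron-type first exons 9 of 96 (9.4%) and 2 of 56 (3.6%). Per the study's methods, spliced reads could be found at junctions between exons of UCSC gene models, some that skip exons included, and whether these models held the first exons of Grb10-002 and Grb10-003 is not stated in the sources used here. The 0 junction reads of Grb10-002, beside its 92 and 107 exon reads, therefore say nothing about how it is spliced.

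The splice sites of these exons are shown because a junction read rests on them, with the GT that opens the intron or the AG that closes it in capitals.
Grb10-005 donor, chr11:11937175-11937204: tgcacgtcagGTaggagttgggcggggagc
Grb10-001 donor, chr11:11925821-11925850: ggctctccagGTacgcaggtgggctccgcc
Grb10-002 donor, chr11:11926645-11926674: tataatggggGTgggtccagacgggcattt
Exon 2 acceptor, chr11:11887668-11887697: ctctctttttttttttttAGgacaaagtgg

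The share of the major first exon depends on how reads are counted. In both libraries the same 2 read positions carried most of its junction reads, 740 of 1124 in BxC (65.8%) and 403 of 596 in CxB (67.6%). With these 2 positions left out, the major exon kept 96.5% of the reads in BxC and 96.0% in CxB. With each position counted once, 34 of 45 positions in BxC (75.6%, 60.5% to 87.1%) and 27 of 35 in CxB (77.1%, 59.9% to 89.6%) came from it. A short stretch holds few distinct positions however many reads it has, so counts of positions compress large differences. By each of these counts the major first exon was the most used one in both libraries. Among the junction counts, the neuron-type share was lowest, at 0.542% in BxC, with at least 8 bases required on each side of the junction, and highest, at 24.4% in BxC, by positions. By positions within the first exons themselves it was 21.5% in BxC and 28.9% in CxB.

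**Figure D2:**
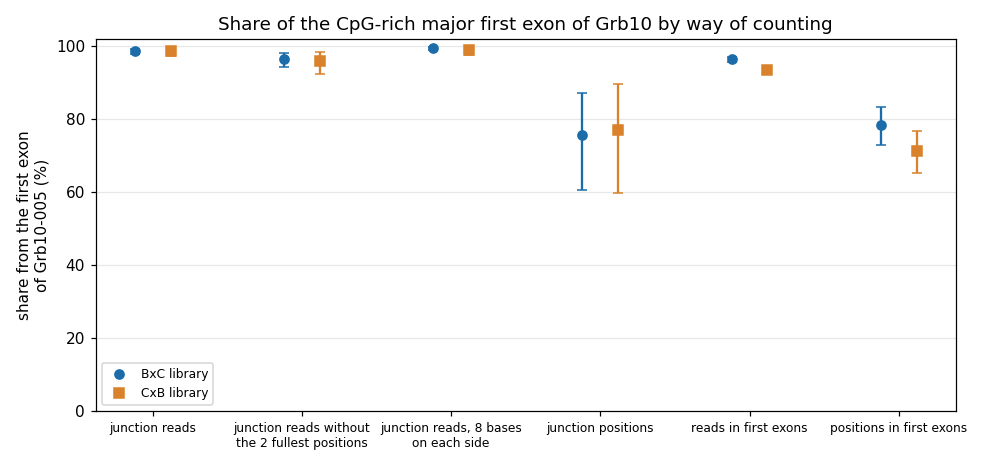
Share of the major first exon of Grb10 (y axis, percent, from 0) in the BxC and CxB libraries, with exact 95% Clopper-Pearson intervals, for 6 ways of counting (x axis). Shares of reads lay between 93.4% and 99.5%, and shares of distinct positions between 71.1% and 78.5%.

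Downstream of the first exon, Grb10 fell into 2 levels. Exon 2 stood at 158.1 RPKM in BxC and 109.6 in CxB, exon 3 at 32.6 and 24.8, and exon 4 at 67.6 and 72.4. From exon 5 to exon 16 the level was between 6.17 and 19.6 RPKM in BxC and between 4.75 and 22.4 in CxB. The last exon, which holds the 3′ UTR, had 7716 and 6524 reads and stood at 19.3 and 19.2 RPKM. Exons 1 to 4 together were 7.90-fold denser than exons 5 to 16 in BxC and 6.04-fold in CxB. By distinct positions the step was smaller, at 1.71-fold and 1.73-fold. The drop between exons 4 and 5 was present in both libraries and with both counts.

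By reads, the junctions fell at another place. The junction of exons 1 and 2 had 1124 reads in BxC and 596 in CxB, that of exons 2 and 3 had 73 and 50, that of exons 3 and 4 had 22 and 24, and that of exons 4 and 5 had 75 and 64. The later junctions had between 7 and 45 reads in BxC and between 5 and 44 in CxB. By distinct positions, the first 4 junctions had 34, 17, 20 and 24 in BxC and 27, 11, 14 and 19 in CxB, and the next had 12 and 13. The step in spliced reads after the first junction was thus much smaller by positions. All 16 consecutive junctions had reads in each library. Along the longest annotated coding sequence, cut into 3 equal parts, the mean depth of the 5′ part was 138.8 reads per base in BxC against 37.8 in the 3′ part, a log2 ratio of 1.87. In CxB the ratio was 1.89. Of all genes with at least 900 coding bases and a depth of 1, 9.49% in BxC and 8.03% in CxB had a log2 ratio at least as high, and the median was 0.14 and 0.10. By read depth, a gene that falls this much from 5′ to 3′ was therefore uncommon but not rare. The genes were not ranked by distinct positions.

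**Figure D3:**
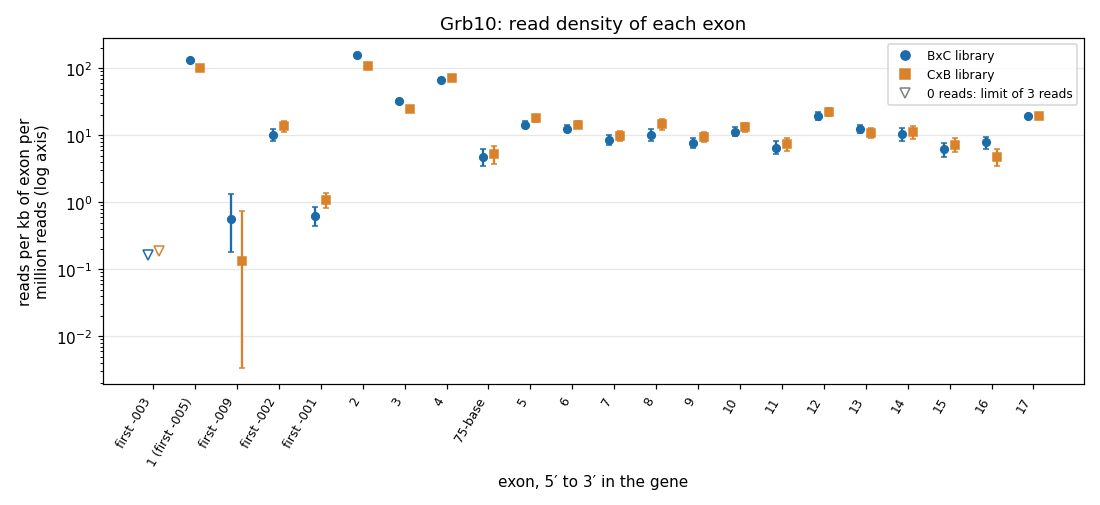
RPKM (y axis, log scale) for each annotated first exon, the 75-base exon and exons 2 to 17 of Grb10 in gene order (x axis), for the BxC and CxB libraries, with exact 95% Poisson intervals; open triangles mark the limit that 0 reads allow. Exons 1 to 4 lie between 24.8 and 158.1, exons 5 to 16 between 4.75 and 22.4, and the neuron-type first exons between 0.132 and 13.7.

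Exon by exon, the libraries did not differ in 1 direction. By reads, exons 1, 2 and 3 were lower in CxB, with log2 ratios of -0.39, -0.53 (-0.65 to -0.41) and -0.40 (-0.55 to -0.25). Exon 4 stood at 0.10 (-0.01 to 0.21), exon 5 at 0.31 (0.08 to 0.54), exon 8 at 0.51 (0.09 to 0.92) and the last exon, with the most reads, at -0.01 (-0.06 to 0.04). By positions, the interval of each of these exons included 0. Exon 16 was the lowest of the consecutive exons in CxB over BxC, at -0.72 (-1.25 to -0.21) from 95 and 49 reads, and at -0.83 (-1.57 to -0.13) by positions. Over so many exons, some intervals may leave out 0 by counting error alone, and no share over exons of other genes was taken.

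Intron 4 stood apart from the other introns of Grb10. Outside annotated exons it had 1621 reads in BxC and 1439 in CxB, or 141.8 and 125.9 reads per kilobase. The other 15 introns had between 0 and 65.8 reads per kilobase in BxC and between 0 and 55.6 in CxB, with medians of 11.7 and 9.06, and the highest was intron 12 in both libraries. Intron 4 was thus 10.4-fold denser than the other introns together in BxC and 10.98-fold in CxB, and 8.21-fold and 9.51-fold by distinct positions. Its reads were spread along it: each of 12 successive kilobases had between 50 and 261 reads per kilobase in BxC, and between 47 and 222 in CxB. At 8.42% and 8.71% of the exon depth over the 9705 bases before the 75-base exon, it was not extreme among introns, since 16.4% of 94760 gaps between exons in BxC and 15.6% of 93678 in CxB were at least as high.

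At the edge of exon 4 with intron 4, 168 unspliced reads in BxC and 204 in CxB ran on into the intron, against 84 and 65 spliced reads. These unspliced reads fell on 7 and 6 positions only. They made up 66.7% of 252 reads (60.5% to 72.5%) and 75.8% of 269 (70.3% to 80.8%), but 7 of 35 positions and 6 of 26. At the other end of the intron, at exon 5, 17 of 100 reads in BxC and 14 of 83 in CxB were unspliced. There, annotated exon covers the intron bases next to exon 5, and the exon-free part begins at chr11:11856028. The unspliced reads at exon 5 thus ran into annotated exon and are no measure of a retained intron. At the 3′ edges of the other 15 exons, of which exon 6 also adjoins annotated exon, there were between 0 and 15 unspliced reads. By reads, exon 4 thus had the most past its 3′ edge in both libraries. By positions it had 7 against 3 for exon 3 in BxC, and 6 for each of them in CxB.

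**Figure D4:**
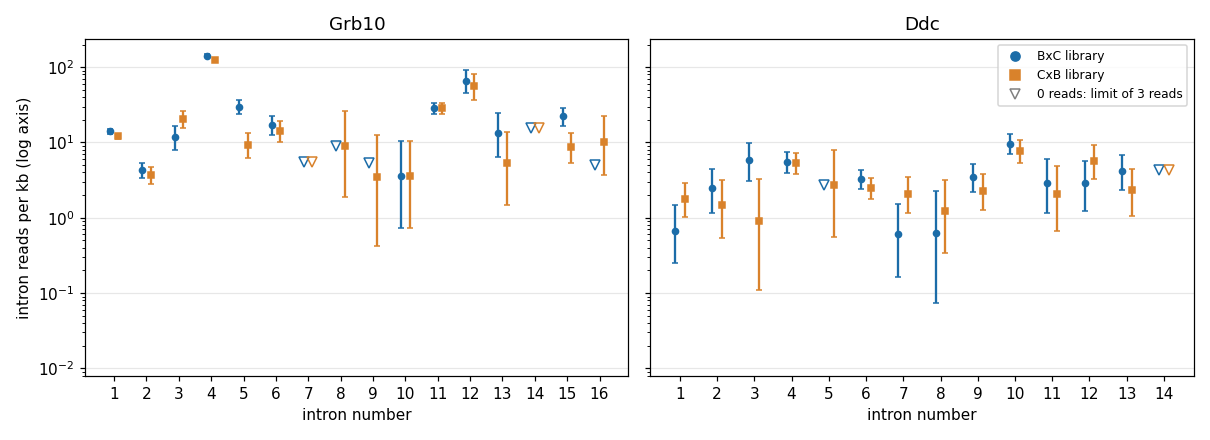
Reads per kilobase (y axis, log scale) in each intron of Grb10 (left) and Ddc (right), outside annotated exons, by intron number from the 5′ end (x axis), for the BxC and CxB libraries with exact 95% Poisson intervals; open triangles mark the limit that 0 reads allow. Intron 4 of Grb10 stands at 141.8 and 125.9, and the introns of Ddc between 0 and 9.69.

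Intron 4 also holds an annotated exon of 75 bases, at chr11:11857755-11857829, which Grb10-005 lacks and another annotated transcript holds. Its splice sites are shown with GT and AG in capitals, since its use was measured from reads across them.
Acceptor, chr11:11857820-11857849: gaaccacaatttctgtctAGtgtggcagat
Donor, chr11:11857735-11857764: gagatggcagGTgggtttgtccgctaagtt
The junctions that join it to its neighbours had 16 reads in BxC and 6 in CxB, and the junction that skips it had 75 and 64. The skipping share was 82.4% of 91 reads in BxC (73.0% to 89.6%) and 91.4% of 70 in CxB (82.3% to 96.8%), so most transcripts read at this point left it out and some held it in both libraries. Counted per included exon, each of which gives reads at 2 junctions, the included share would be lower still. At exon 5, the junction of exons 4 and 6 had 1 of 95 reads in BxC and 0 of 105 in CxB, and 2 further CxB reads at 1 position joined exons 2 and 6. At exon 9, the annotated junction of exons 8 and 10 had 0 of 31 and 0 of 60 reads, which allows up to 9.68% in BxC.

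All first-exon reads found for Ddc lay in the first exon of Ddc-201. That exon, at chr11:11790341-11790404, had 147 reads in BxC and 130 in CxB (17.8 and 18.5 RPKM). The first exon of Ddc-001, 7.64 kb upstream and only 37 bases long, had 0 reads in both, which allows up to 0.629 RPKM in BxC and 0.739 in CxB. All 43 junction reads into exon 2 in BxC, and all 39 in CxB, came from Ddc-201. Whether the alignment models held the first exon of Ddc-001 is not stated in the sources used here. Its 0 junction reads therefore do not limit its use, and its 0 exon reads limit it only weakly.

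The strand of Ddc can be read from its splice sites. Each of 16 introns of Ddc with spliced reads, and each of 23 of Grb10, begins with GT and ends with AG when read on the minus strand, and 0 do so on the plus strand. The first intron of Ddc-201 is shown as an example, with GT and AG in capitals.
Donor, chr11:11790321-11790350: ccagctgcctGTgagtacatctctttgtct
Acceptor of exon 2, chr11:11780644-11780673: tctattctctctgtcggcAGttttcaacat
The catalog's plus sign for Ddc therefore goes against the annotation and the sequence at these introns. Spliced reads could be placed only at junctions of gene models, so these sites are not evidence independent of such models. Over whole genes the orientation of the reads did not follow the annotated strand. Of the Ddc reads, 37.8% in BxC and 42.5% in CxB lay on the minus strand, and of the Grb10 reads 44.7% and 44.3%, while over the 10527 and 10034 genes with at least 1000 reads the median share on the annotated strand was 43.9% and 43.2%. The first exon of Ddc-201 differed from the gene as a whole, with 140 of 147 reads in BxC and 127 of 130 in CxB on the minus strand, while the major Grb10 exon had 2072 of 3608 and 1383 of 2349. Over whole genes the reads thus carried no usable strand in either library, although the study's methods describe strand-specific libraries.

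Ddc fell in steps from 5′ to 3′. Exon 2 stood at 21.3 RPKM in BxC and 18.7 in CxB, exons 3 to 5 between 5.92 and 7.64 in BxC and between 6.75 and 7.68 in CxB, and exons 6 to 15 between 0.523 and 5.04 in BxC and between 0.461 and 5.63 in CxB. From exon 5 to exon 6 the density fell 5.25-fold in BxC (3.45 to 8.27) and 5.33-fold in CxB (3.28 to 9.10). The fall was smaller by distinct positions, at 2.45-fold and 3.02-fold, and by reads that start inside the exon, at 2.83-fold and 2.29-fold. Exon 2 was 40.8-fold denser than the last exon in BxC and 40.5-fold in CxB, with only 28 and 21 reads in the last exon, and 9.35-fold and 13.2-fold by positions. Exons 1 to 5 together were 9.30-fold denser than exons 6 to 15 in BxC and 7.59-fold in CxB, and 3.91-fold and 4.33-fold by distinct positions.

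In Ddc this fall was steeper by read depth than in most genes, and the genes were not ranked by distinct positions. The log2 ratio of the 5′ over the 3′ part of its coding sequence stood at 2.95 in BxC, where 2.60% of the genes compared had one at least as high, and at 2.79 in CxB, where 2.66% did. All 14 consecutive junctions of Ddc-201 nevertheless had reads in each library, from 1 to 72 in BxC and from 1 to 54 in CxB. The junction of exons 4 and 5 had the most, at 72 and 54 reads, while the next one, of exons 5 and 6, had 2 in each library. Annotated transcripts that end early, in last exons of Ddc-004, Ddc-005, Ddc-006 and Ddc-008, had between 0 and 2 reads in those exons and 0 reads at their junctions. Of the 36-base windows in the last exon of Ddc-008, 83.2% are unique in mm9, and whether the alignment models held these exons is not stated in the sources used here.

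**Figure D5:**
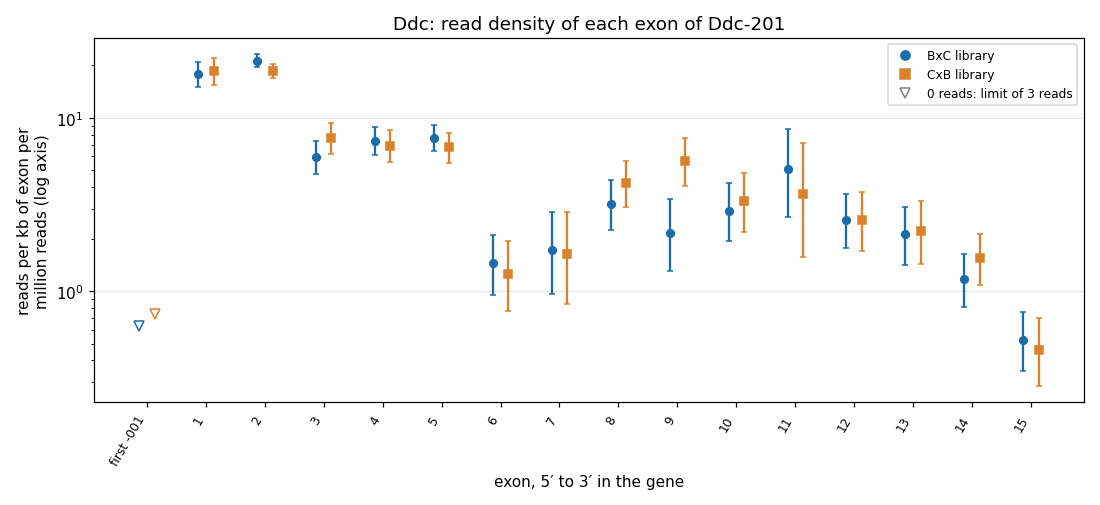
RPKM (y axis, log scale) for the first exon of Ddc-001 and exons 1 to 15 of Ddc-201 in gene order (x axis), for the BxC and CxB libraries, with exact 95% Poisson intervals; open triangles mark the limit that 0 reads allow. Exons 1 and 2 lie between 17.8 and 21.3, exons 3 to 5 between 5.92 and 7.68, and the last exon at 0.523 and 0.461.

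Most Ddc exons matched between the libraries within counting error. The counting interval of the log2 ratio left out 0 for 2 of the 15 exons of Ddc-201. Exon 2 stood at -0.19 (-0.38 to -0.01) and exon 9 at 1.38 (0.56 to 2.24), from 19 reads in BxC and 42 in CxB. By positions, exon 2 stood at 0.04 (-0.36 to 0.45) and exon 9 at 1.13 (-0.20 to 2.57), so both intervals included 0.

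Ddc introns were thinly covered, with between 0 and 9.69 reads per kilobase in BxC and between 0 and 7.80 in CxB. Between the 2 genes, 32336 exon-free bases held 58 reads in BxC and 26 in CxB, or 1.79 and 0.804 reads per kilobase, about the level of the quiet Ddc introns. The gene 1700042O10Rik, which lies on the plus strand inside introns of Ddc and shares no exon with it, had 1 and 3 reads. Reads around the exons were thus few, apart from those in the introns of Grb10.

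Genes of the insulin and IGF pathway, in which GRB10 acts, were read in both libraries. Of 17 genes for receptors, ligands and GRB10 partners, 16 had at least 100 reads in each library, 0 were past a fold of 1.5 in either direction, beside 1.1% of all genes, and the median log2 ratio was 0.0029, against -0.0011 over all genes tested. With so low a share over all genes, a count of 0 in a list this short says nothing particular about it, here and in the lists below. Igf2, a growth factor, had the most reads in BxC, with 88258, and 64648 in CxB (124.6 and 107.3 RPKM). Ywhae, a 14-3-3 protein, had 80078 and 68981, the most in CxB, and was the higher by RPKM in both libraries (241.8 and 244.8). The receptor genes Insr and Igf1r stood at 7.94 and 25.01 RPKM in BxC, and at 7.62 and 22.4 in CxB. Ins2, for insulin, had the fewest, 6 and 26 reads, and was not tested. Of the Grb7 adaptor family, Grb10 was the highest in both libraries, ahead of Grb14 at 2.15 and 1.73 RPKM and Grb7 at 0.779 and 0.658. Family members had a median log2 ratio of -0.24, with 0 of 3 past the fold, beside the same 1.1%.

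Of 19 genes of monoamine synthesis, transport and breakdown, Ddc among them, 17 had enough reads, 0 were past the fold, beside 1.1% of all genes, and the median log2 ratio was 0.02. Slc18a2, the vesicular monoamine transporter of the brain, had 3418 reads in BxC and 2946 in CxB. Th, the enzyme one step before Ddc in dopamine synthesis, stood at 1.41 and 1.47 RPKM, and Tph2, the one before Ddc in serotonin synthesis of the brain, at 0.811 and 0.703, against 2.01 and 1.93 for Ddc. These levels are over all merged annotated exons, which for Ddc include parts with few reads, so they compare the genes only roughly. Pnmt and Slc18a1 had the fewest reads, with 61 and 77 and with 68 and 34. The 6 markers of dopamine and serotonin neurons summed to 6.64 RPKM in BxC and 7.15 in CxB, and all 6 had reads, Pitx3 the fewest with 79 and 72.

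Markers of the tissues that a whole embryonic brain holds beside neurons were read too. Summed levels were 1440.2 RPKM in BxC and 1325.6 in CxB for 5 neuron markers, 311.9 and 321.8 for 6 of radial glia, 37.0 and 36.6 for 5 of endothelium, 264.5 and 293.0 for 5 of choroid plexus, 47.9 and 44.2 for 5 of meninges and mesenchyme, and 278.8 and 226.6 for 4 of red blood cells, of which Hbb-bh1 had 0 reads. The 3 red cell markers with enough reads had a median log2 ratio of -0.30, and the medians of the other marker lists lay between -0.12 and 0.12. Grb10 is also active in some of these other tissues, so its major first exon cannot be assigned to a cell type here. None of the tested markers was past the fold of 1.5, beside 1.1% of all genes, and the part of each cell type in the Grb10 and Ddc values was not tested.

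Of the 6 nearest protein-coding neighbours, 4 had enough reads and 0 were past the fold, beside 1.1% of all genes. Cobl, an actin nucleator beyond Grb10, had 5525 and 5059 reads, Ikzf1, a lymphoid transcription factor beyond Ddc, had 928 and 734, and 4930512M02Rik had 0 in both. Among 62 catalog names that match an annotated gene with reads, Grb10 ranked 19 by RPKM in both libraries, and Ddc 43 in BxC and 42 in CxB. Nearest to Grb10 in the pair of levels were Dlx5 (12.7 and 12.03 RPKM), Tssc4 (13.3 and 11.2) and Sgce (15.7 and 13.5), and nearest to Ddc were Calcr (1.44 and 1.70), Rtl1 (3.13 and 2.96) and Pde4d (3.07 and 3.18). Likeness was measured over 2 libraries only.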

How the data were processed

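Reads of 36 bases had been placed on mm9 with Novoalign, per the labels, and the authors deposited alignments whose whole-number counts of identical reads per line were used as they stand, a meaning inferred from the values. The libraries held 128944754 (BxC) and 109719746 (CxB) reads. Both totals exceed the average yield per library in the study's methods, and the reason was not tested. Every read count and RPKM above rests on that inferred meaning. The authors' catalog gives positions only, in the deposited coordinates, and 0 columns were unassigned. Reads were counted where an aligned block overlapped an exon of GENCODE vM1 (mm9). Counts took both strands, since the deposited reads keep no strand over whole genes; the design had set sense reads, which became an alternative. Counting each distinct position once was another. Intervals are exact at 95% (SciPy 1.17.1), and the ratio interval is the exact binomial one. A count of 0 was taken to allow 3. With 1 library per cross no test was run, and a fold of 1.5 over genes with at least 100 reads in each library served as background. The ratio calculation was tested on simulated data. Grb10, Ddc and the gene lists were chosen with earlier results of these data known. By the naming rule, at most 5 members per list were named, those with most and fewest reads, and 1 gene that the rule names is not reported here. Insr, Igf1r, Th and Tph2 were named for their roles, after their values were seen. Map2 was not found under that name.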

Additional observations from a re-analysis of the deposited data

How the results depend on the processing

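Of 97 alternative values, 54 stayed within the counting interval of the value reported (or, for counts of genes, within 1.5 times) and 43 moved. The cause was not tested unless stated. Turns of direction were not scored. The log2 ratio of Grb10 went from -0.08 to 0.0037 by positions, and that of Ddc from -0.06 to 0.11 with sense reads. The minus-strand share of Grb10 in BxC went from 44.7% to 54.0% by positions. No paired analysis was possible because each cross has 1 library. With each distinct position counted once, levels were 10.5 (BxC) and 10.5 RPKM (CxB) for Grb10 and 2.54 and 2.46 for Ddc, the Grb10 ratio was 0.0037, 23 genes in place of 169 were past the fold, the major first exon had 75.6% and 77.1% of junctions and 78.5% and 71.1% of first-exon reads, and skipping of the 75-base exon in BxC was 72.7%. The log2 steps were then 0.77 and 0.79 in Grb10 exons, 1.97 and 2.11 in Ddc exons and 3.04 and 3.25 for intron 4, and the minus-strand shares 54.0% and 52.6% for Grb10 and 42.3% for Ddc in BxC. With sense reads only, an alternative chosen after seeing the data, levels were 6.11 and 5.73 for Grb10 and 0.761 and 0.821 for Ddc, by construction lower, the Ddc ratio was 0.11, 95 genes were past the fold, the major junction share was 90.6% and 96.4%, and skipping was 70.0% and 80.0% for the 75-base exon and 0 for exon 5 in BxC. Without chromosome X and the mitochondrial chromosome in the totals, Grb10 stood at 14.3 and 13.5. With lower minimums of 20 and 1 read, 936 of 18489 genes (5.06%) and 4649 of 24355 (19.1%) were past the fold. In the lists, Slc18a1 was past it at both minimums, higher in BxC, and Ins2 at 1 only, higher in CxB. Beside those shares, so few calls say nothing particular about the lists. With 8 bases on each side, the BxC junction share was 99.5%, and without the 2 fullest positions, also chosen after seeing the data, 96.5% and 96.0%. Counting reads that start in the exon gave first-exon shares of 97.2% and 94.8%. Over the whole catalog span, minus-strand shares of Grb10 were 41.5% and 41.7%. Depth limits the neuron-type junctions, with 14 and 8 reads, and the 3′ exons of Ddc.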

Other observations

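The catalog also holds an entry named Meg1, marked as maternally expressed, at chr2:3326315-3339920 (mm9) on the minus strand. The RefSeq gene table lists Meg1 as a synonym of 2 genes, Meig1 on chromosome 2 and Grb10 on chromosome 11. The catalog span is exactly that of Meig1 in the annotation. The exons of the entry had 76 reads in BxC and 46 in CxB, against 14452 and 11738 in the exons of the Grb10 entry. Which of these genes the entry was meant to list is not stated in the sources used here.

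The catalog's Grb10 entry starts inside the annotated first exon of Grb10-005, and its 14452 and 11738 reads are fewer than the 16165 and 13002 over all annotated Grb10 exons. It holds none of the neuron-type first exons. Over the catalog span of Ddc, introns included, there were 1356 and 1131 reads, against 1129 and 923 in its annotated exons.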
